A study of Mus musculus with 6 samples.

Results

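The genes described here encode proteins that carry out or steer pre-mRNA splicing, namely the SR proteins, the U2AF and SF3 factors of the 3′ splice site, proteins of the small nuclear ribonucleoproteins (snRNPs), the Prp proteins and the heterogeneous nuclear ribonucleoproteins (hnRNPs). They were chosen by symbol, as every gene with a probe of a single gene symbol that begins with Srsf, Sf3a, Sf3b, Hnrnp, Snrp, U2af or Prpf (followed by a digit for Srsf, Sf3a, Sf3b and Prpf). The rule found 47 genes among the 14860 with such a probe, each with 1 probe: 10 SR proteins, 1 U2AF subunit, 8 SF3A and SF3B subunits, 4 snRNP proteins, 11 Prp proteins and 13 hnRNPs. The rule itself reads only symbols. Snrpn shared its probe with Snurf and is described apart from the 47.

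The samples are hippocampi of 3 HGPS Transgenic mice and 3 wildtype mice, each animal 63 weeks old and hybridised to its own Affymetrix array. HGPS commonly stands for Hutchinson-Gilford progeria syndrome. The promoter, allele and copy number of the transgene, the cells that express it, the strain and the sex are not stated in the labels. Precision is limited by having 3 arrays a group. The values are log2 expression, summarised over the probes of a transcript by RMA, so they report the amount of a transcript and not the choice between its splice sites.

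Splicing removes introns in a large RNA and protein machine, the spliceosome, that is assembled afresh on each intron. U1 snRNP marks the 5′ splice site, U2AF and U2 snRNP mark the 3′ splice site and the branch point, and the tri-snRNP then brings in the catalytic core. SR proteins mostly bind exonic enhancers and promote exon inclusion, whereas hnRNPs often oppose them, and the balance between both sets the use of alternative sites. In the progeria syndrome a mutation of LMNA strengthens a cryptic splice site and yields the shortened lamin A called progerin, and SRSF1 and SRSF6 are known to act on that choice in cells. Neurons use alternative splicing more than most cells, and many of these factors are abundant in brain.

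Before the splicing genes, Lmna itself was looked at as the gene of the disorder. Lmna had 7.96, 7.94 and 7.86 on the log2 scale in transgenic replicates 1 to 3, against 7.78, 7.74 and 7.79 in wildtype replicates 1 to 3. All transgenic animals lay above all wildtype animals, with a log2 difference of 0.15 ± 0.06 (SE) that missed the threshold (adjusted p = 0.451 in limma). Whether its probe also detects transcripts of the transgene was not tested. Across all probes, 7 of 14996 (0.0467%) passed a false discovery rate of 10% and 0 passed it together with a 2-fold difference, the thresholds that the series states. Averaged over the Y-linked Eif2s3y and Kdm5d, the log2 signal was 4.67, 4.78 and 4.70 in the transgenic animals, against 4.63, 8.41 and 8.45 in wildtype replicates 1 to 3. Y-linked signal was thus high in wildtype replicates 2 and 3 and low in the other 4 arrays. Where a single-symbol probe's difference moved by more than 1.5 times against wildtype replicate 1 alone, that value is given beside it. Of 12 genes that mark hippocampal neurons, all 12 lay at or above the median level of the tested probes, and of 7 Hox genes that the forebrain does not use, 0 did.

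None of the 47 splicing genes passed the false discovery rate of 10% in limma, where the smallest adjusted p was 0.432, for Srsf9. An unadjusted p under 0.05 was reached by 6 of 47 genes (12.8%), against 10.6% of all tested probes. Higher in transgenic animals at that level were Srsf9 and Sf3a2 (4.26% of the genes, against 5.81% of all probes). Lower were Hnrnph2, Hnrnpu, Prpf38b and Srsf11 (8.51%, against 4.8% of all probes). The share over both directions lies near the background, with a higher share than the background on the lower side and a lower share on the higher side. The difference was above 0 for 24 of 47 genes (51.1%, against 49.9% of all probes) and below 0 for 23, with a median of 0.00 on the log2 scale and an interquartile range of -0.10 to 0.10. Over all tested probes the median was -0.0002, with an interquartile range of -0.08 to 0.08. Probes at or above the median level had a median of 0.03 and an interquartile range of -0.04 to 0.10. The 44 of the 47 genes at that level had a median of 0.00 and a wider range of -0.10 to 0.09. Without the dimmest 33.3% of the probes, 9.06% were higher and 4.62% lower at an unadjusted p under 0.05 in limma. Of the 45 genes kept there, 3 were higher and 5 lower.

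The 95% intervals give, for each gene by itself, the range of mean differences compatible with the spread among the animals. They take no account of the Y-linked signal, which is uneven between the groups. For 45 of the 47 genes the 95% interval of the difference lay within 1.5-fold in either direction, as it did for 91.9% of all probes, and for 19 genes (40.4%) it lay within 1.2-fold (44.4% of all probes). The exceptions at 1.5-fold were Hnrnph2 and U2af2, and the interval of Hnrnph2 reached beyond 2-fold, the bound that held 97.9% of the genes and 98.3% of all probes. The groups did not overlap in 12 genes (25.5%, against 17.7% of all probes). All transgenic animals lay above all wildtype animals in 4 genes (8.51%, against 9.14% of all probes), Srsf9, Sf3a2, Srsf2 and Hnrnpab. They lay below all wildtype animals in 8 genes (17.0%, against 8.55% of all probes), Hnrnph2, Hnrnpll, Hnrnpu, Prpf31, Prpf38b, Prpf4b, Snrpa1 and Srsf11. With 3 animals a group, a two-sided exact permutation test cannot go below p = 0.1, which each of these 12 genes reached.

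**Figure D1:**
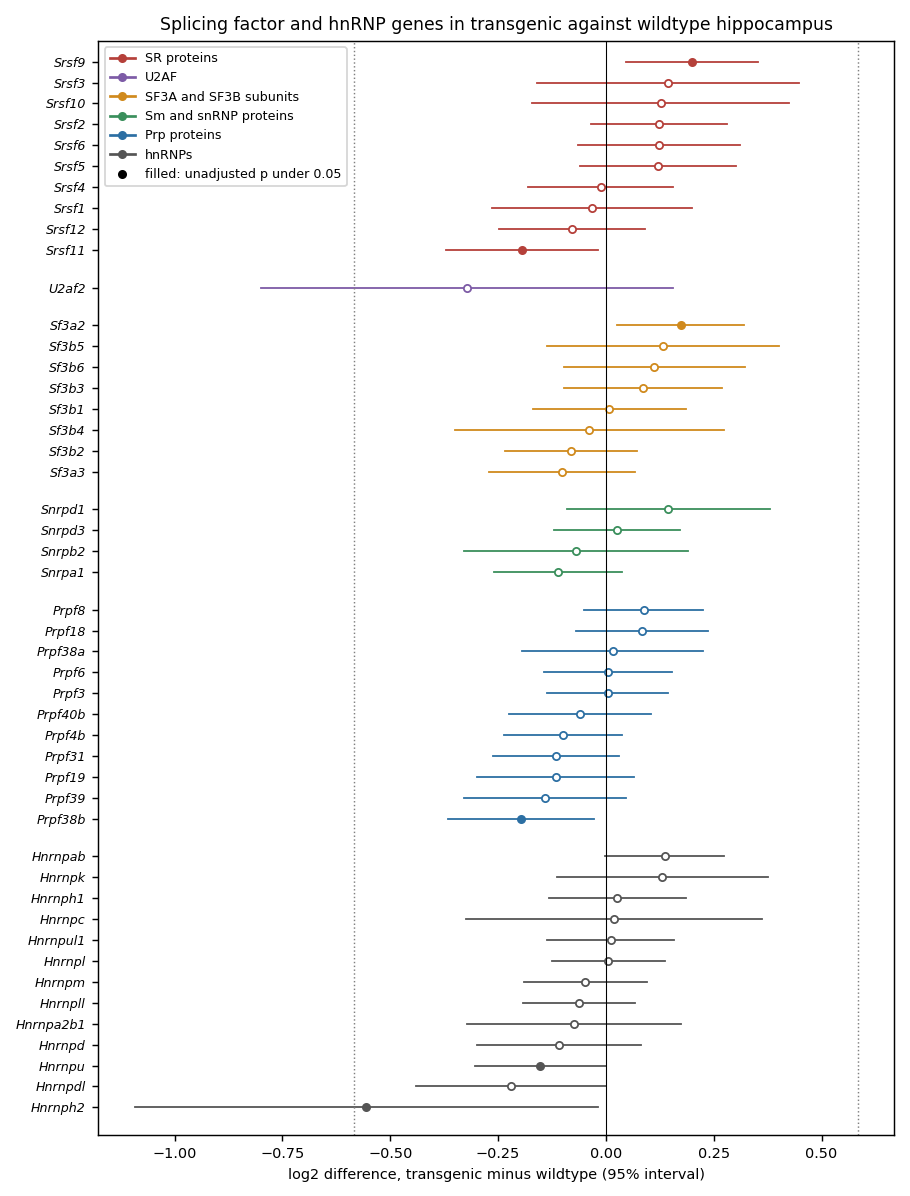
Log2 difference of transgenic minus wildtype hippocampus (horizontal axis) for the 47 genes, grouped by family, with points for the difference, lines for limma's 95% interval and filled points for an unadjusted p under 0.05. Dotted lines mark 1.5-fold, and only the intervals of Hnrnph2 and U2af2 cross them.

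The SR proteins share a domain rich in arginine and serine that brings spliceosome components to an exon. Of the 10 measured, 6 had a difference above 0 and 4 below, with a median of 0.12 and a range of -0.19 to 0.20, and none passed the threshold. Srsf9, an SR protein of the short kind, had 9.76, 9.88 and 9.82 in transgenic replicates 1 to 3, against 9.70, 9.56 and 9.60 in wildtype replicates 1 to 3. Its lowest transgenic animal was above its highest wildtype animal by a small margin. The log2 difference was 0.20 ± 0.07 (SE), or 114.9% of the wildtype level, with an unadjusted p of 0.0178 and an adjusted p of 0.432 in limma. Against wildtype replicate 1 alone it was 0.12. Srsf2, which marks nuclear speckles and binds enhancers in many exons, had 10.91, 10.99 and 11.10 in transgenic animals and 10.88, 10.89 and 10.86 in wildtype animals. Here the wildtype animals were tightly grouped and the transgenic animals spread upwards (difference 0.12 ± 0.07, limma adjusted p = 0.544), and without transgenic replicate 3 the difference was 0.07.

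The difference of Srsf11 had the opposite sign to that of Srsf9. Srsf11, which acts with Srrm4 in the inclusion of neuronal microexons, had 8.58, 8.57 and 8.37 in transgenic replicates 1 to 3, against 8.74, 8.66 and 8.71 in wildtype replicates 1 to 3. Transgenic replicate 3 was the lowest array, and the groups did not overlap. The log2 difference was -0.19 ± 0.07 (SE), with an unadjusted p of 0.035 and an adjusted p of 0.443 in limma. Without transgenic replicate 3 it was -0.13, over 1.5 times smaller. Srsf12, a relative of Srsf10 that can repress splicing, had 8.78, 8.98 and 8.96 in transgenic animals and 8.99, 8.95 and 9.02 in wildtype animals. The groups overlapped, with a difference of -0.08 ± 0.07 (limma adjusted p = 0.699), and without transgenic replicate 1, its lowest array, the difference was -0.02.

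The SR proteins known to act on LMNA splicing did not stand out. Srsf1, the founding member of the family, had 9.06, 9.24 and 9.44 in transgenic replicates 1 to 3, against 9.24, 9.31 and 9.30 in wildtype replicates 1 to 3. The transgenic animals lay on both sides of the wildtype animals. The difference was -0.03 ± 0.10 (SE), with a 95% interval of -0.26 to 0.20 (limma adjusted p = 0.919), and it was 0.06 without transgenic replicate 1 and 0.01 against wildtype replicate 1 alone. Srsf6, an SR protein with paired RNA-binding domains, had 9.99, 9.85 and 9.98 in transgenic animals and 9.94, 9.71 and 9.80 in wildtype animals. Its wildtype replicate 1, the wildtype array without Y-linked signal, lay among the transgenic values. The difference was 0.12 ± 0.08 with an interval of -0.07 to 0.31 (limma adjusted p = 0.592), and it was 0.07 without wildtype replicate 2, 0.18 without wildtype replicate 1 and -0.00 against wildtype replicate 1 alone.

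Srsf5, a close relative of Srsf6, had 10.19, 10.30 and 10.44 in transgenic animals and 10.19, 10.17 and 10.21 in wildtype animals. Transgenic replicate 1 equalled the wildtype values while replicate 3 was highest (difference 0.12 ± 0.08 (SE), limma adjusted p = 0.586), and the difference was 0.05 without transgenic replicate 3 and 0.18 without transgenic replicate 1. Of the remaining SR proteins, Srsf3 differed by 0.14 ± 0.13, Srsf10 by 0.13 ± 0.13 and Srsf4 by -0.01 ± 0.07, each with overlapping groups. The difference against wildtype replicate 1 alone was 0.00 for Srsf3 and -0.06 for Srsf4. Srsf10 is a splicing repressor when dephosphorylated, and Srsf3 is the smallest protein of the family.

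The 3′ splice site is recognised by U2AF, whose large subunit U2af2 binds the polypyrimidine tract. U2af2 had 9.15, 8.84 and 8.26 in transgenic replicates 1 to 3, against 9.08, 9.05 and 9.09 in wildtype replicates 1 to 3. Transgenic replicate 1 was above the wildtype animals and replicate 3 was far below all other arrays. The log2 difference was -0.32 ± 0.20 (SE), with a 95% interval of -0.80 to 0.15 (limma adjusted p = 0.582). Without transgenic replicate 3 it was -0.08. Without transgenic replicate 1 it was -0.52. Whether the U2af2 probe also detects other transcripts was not tested.

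The SF3A and SF3B complexes are parts of U2 snRNP that hold the branch point. Of the 8 measured subunits 5 had a difference above 0 and 3 below, with a median of 0.05 and a range of -0.10 to 0.17, and none passed the threshold. Sf3a2 had 9.79, 9.65 and 9.75 in transgenic replicates 1 to 3, against 9.59, 9.51 and 9.56 in wildtype replicates 1 to 3. The groups did not overlap, and the difference of 0.17 ± 0.06 (SE), or 112.7% of wildtype, had an unadjusted p of 0.0274 and an adjusted p of 0.433 in limma. Its partner in the same complex, Sf3a3, had 8.26, 8.38 and 8.17 in transgenic animals and 8.34, 8.37 and 8.41 in wildtype animals, with a difference of -0.10 ± 0.07 (limma adjusted p = 0.612). The subunits of SF3A thus had differences of opposite sign, neither past the threshold, and the contrast between them was not tested. Without transgenic replicate 3 the difference of Sf3a3 was -0.05, without transgenic replicate 2 it was -0.16, and against wildtype replicate 1 alone it was -0.07.

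Sf3b1, the branch point clamp that is mutated in several blood cancers, had 10.44, 10.50 and 10.62 in transgenic animals and 10.61, 10.47 and 10.46 in wildtype animals. The groups covered the same range, and the difference was 0.01 ± 0.08 (SE), with an interval of -0.17 to 0.19 (limma adjusted p = 0.973). Its sign changed under several alternatives, and it was -0.09 against wildtype replicate 1 alone. Sf3b6, the small subunit that touches the branch point, had 7.78, 7.96 and 8.11 in transgenic animals and 7.80, 7.85 and 7.85 in wildtype animals. Its transgenic animals spread around a tight wildtype group (difference 0.11 ± 0.09, limma adjusted p = 0.651), and without transgenic replicate 3 the difference was 0.03 and without transgenic replicate 1 it was 0.20. Sf3b2, which binds near the branch site, had 8.31, 8.36 and 8.32 in transgenic animals and 8.42, 8.32 and 8.49 in wildtype animals (difference -0.08 ± 0.07, limma adjusted p = 0.655). The groups overlapped through wildtype replicate 2, and the difference was -0.04 without wildtype replicate 3 and -0.13 without wildtype replicate 2. The remaining subunits Sf3b3, Sf3b4 and Sf3b5 differed by 0.09 ± 0.08, -0.04 ± 0.13 and 0.13 ± 0.11, all with overlapping groups. Against wildtype replicate 1 alone the difference was 0.04 for Sf3b3, -0.19 for Sf3b4 and -0.05 for Sf3b5, whose sign changed.

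The snRNP proteins form the stable core of the particles. Snrpd1 and Snrpd3 belong to the Sm ring that encircles most spliceosomal RNAs, and Snrpa1 and Snrpb2 bind U2 RNA as a pair. Snrpa1 had 7.69, 7.66 and 7.80 in transgenic replicates 1 to 3, against 7.80, 7.87 and 7.82 in wildtype replicates 1 to 3. All transgenic animals were lower, replicate 3 by a small margin (difference -0.11 ± 0.06 (SE), limma adjusted p = 0.556). Its partner Snrpb2 had 9.71, 9.90 and 10.15 in transgenic animals and 10.00, 10.04 and 9.94 in wildtype animals. The transgenic animals spread widely around the wildtype animals (difference -0.07 ± 0.11, limma adjusted p = 0.827), and it was 0.03 without transgenic replicate 1 and -0.18 without transgenic replicate 3.

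Among the Sm proteins, Snrpd1 had 6.48, 6.43 and 6.62 in transgenic animals and 6.27, 6.26 and 6.56 in wildtype animals. Wildtype replicate 3 lay among the transgenic values. The difference of Snrpd1 was 0.14 ± 0.10 (SE, limma adjusted p = 0.608). It was 0.24 without wildtype replicate 3 and against wildtype replicate 1 alone, and 0.09 without wildtype replicate 2 and without transgenic replicate 3. Snrpd3 had 10.06, 10.11 and 10.13 in transgenic animals and 10.00, 10.14 and 10.07 in wildtype animals, with a difference of 0.03 ± 0.06 (limma adjusted p = 0.893), and it was 0.10 against wildtype replicate 1 alone.

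The Prp proteins were first defined in yeast by mutants in pre-mRNA processing. Of the 11 measured, 5 had a difference above 0 and 6 below, with a median of -0.06 and a range of -0.20 to 0.09, and none passed the threshold. Prpf38b, a relative of the spliceosome activation factor Prpf38a, had 8.23, 8.01 and 8.05 in transgenic replicates 1 to 3, against 8.29, 8.30 and 8.29 in wildtype replicates 1 to 3. The wildtype animals were almost identical (SD 0.0072), and all transgenic animals lay below them. The log2 difference was -0.20 ± 0.07 (SE), or 87.2% of wildtype, with an unadjusted p of 0.0285 and an adjusted p of 0.433 in limma, and against wildtype replicate 1 alone it was -0.19. Prpf38a itself differed by 0.02 ± 0.09.

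Prpf31, which joins the U4/U6 particle to U5 and is a gene of retinitis pigmentosa, had 7.97, 7.86 and 7.83 in transgenic animals and 8.02, 7.98 and 8.01 in wildtype animals. The groups did not overlap (difference -0.12 ± 0.06 (SE), limma adjusted p = 0.538). Prpf8, the scaffold of the catalytic centre, had 10.60, 10.65 and 10.68 in transgenic animals and 10.60, 10.52 and 10.55 in wildtype animals. Transgenic replicate 1 and wildtype replicate 1 had the same level, and the difference was 0.09 ± 0.06 with an interval of -0.05 to 0.22 (limma adjusted p = 0.598). Against wildtype replicate 1 alone the difference of Prpf8 was 0.04. Prpf18, a factor of the final step of splicing, had 7.96, 7.96 and 7.92 in transgenic animals and 7.96, 7.82 and 7.81 in wildtype animals. Wildtype replicate 1 lay with the transgenic animals (difference 0.08 ± 0.07, limma adjusted p = 0.648), and the difference was -0.02 against that array alone and 0.13 without it.

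Of the other Prp proteins, Prpf4b, a kinase of the tri-snRNP, had a difference of -0.10 ± 0.06 (SE) with groups that did not overlap. The U1-associated Prpf39 and Prpf40b differed by -0.14 ± 0.08 and -0.06 ± 0.07. Prpf19, the ubiquitin ligase of the complex named after it, differed by -0.12 ± 0.08, and the tri-snRNP proteins Prpf3 and Prpf6 by 0.00 ± 0.06 and 0.01 ± 0.06. Set against wildtype replicate 1 alone, Prpf39 was at -0.23, Prpf40b at -0.02 and Prpf3 at -0.05.

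**Figure D2:**
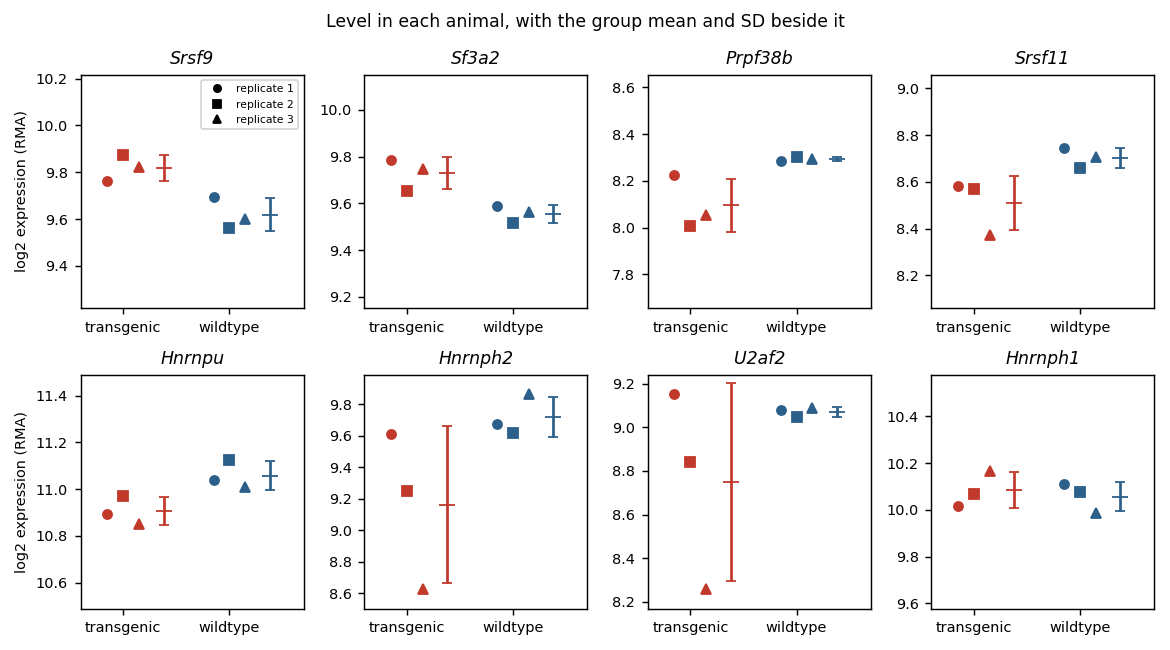
Log2 expression (vertical axis, a window for each gene) of the 6 genes with an unadjusted p under 0.05 and of U2af2 and Hnrnph1 in each animal, with transgenic animals in red and wildtype animals in blue. The symbol gives the replicate, and the bar beside each group is its mean ± SD (n = 3). Transgenic replicate 3 lies apart in Hnrnph2 at 8.63 and U2af2 at 8.26.

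The hnRNPs coat nascent RNA and many of them repress exons. Of the 13 measured, 6 had a difference above 0 and 7 below, with a median of -0.05 and a range of -0.56 to 0.14, and none passed the threshold. Hnrnph2, which binds runs of G, had 9.61, 9.25 and 8.63 in transgenic replicates 1 to 3, against 9.68, 9.62 and 9.86 in wildtype replicates 1 to 3. Transgenic replicate 1 was just below wildtype replicate 2, and replicate 3 was much lower than any other array. The log2 difference was -0.56 ± 0.23 (SE), or 68.0% of wildtype, with a 95% interval of -1.09 to -0.02, an unadjusted p of 0.044 and an adjusted p of 0.463 in limma. A difference of this size in either direction was found for 144 of the 14996 probes (0.96%). Without transgenic replicate 3 the difference was -0.29, with an unadjusted p of 0.0731 in limma, and without wildtype replicates 2 and 3 it was -0.51.

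The close relative Hnrnph1, which binds the same motif, had a different order of arrays. It had 10.02, 10.07 and 10.17 in transgenic animals and 10.11, 10.07 and 9.99 in wildtype animals. Transgenic replicate 3, the lowest array for Hnrnph2, was the highest for Hnrnph1. The difference of Hnrnph1 was 0.03 ± 0.07 (SE), with an interval of -0.13 to 0.19 (limma adjusted p = 0.899). Its sign changed under several alternatives, and it was -0.03 against wildtype replicate 1 alone. Whether the probes of such similar genes detect each other's transcripts was not tested.

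Hnrnpu, a large nuclear protein that also organises chromatin and is a gene of developmental epilepsy, had 10.90, 10.97 and 10.85 in transgenic animals, against 11.04, 11.13 and 11.01 in wildtype animals. The groups did not overlap, and the difference of -0.15 ± 0.06 (SE) had an unadjusted p of 0.049 and an adjusted p of 0.469 in limma. Hnrnpab, which binds AU-rich RNA and takes part in RNA transport in neurons, had 10.20, 10.17 and 10.28 in transgenic animals and 10.07, 10.10 and 10.07 in wildtype animals. All transgenic animals were higher (difference 0.14 ± 0.06, limma adjusted p = 0.474). Hnrnpk, which binds C-rich RNA, had 8.73, 8.91 and 8.97 in transgenic animals and 8.66, 8.62 and 8.93 in wildtype animals. The groups overlapped through wildtype replicate 3 (difference 0.13 ± 0.10, limma adjusted p = 0.651). For Hnrnpk the difference was 0.23 without wildtype replicate 3, 0.20 without transgenic replicate 1, 0.20 against wildtype replicate 1 alone, 0.08 without transgenic replicate 3 and 0.07 without wildtype replicate 2.

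Of the other hnRNPs, Hnrnpdl, a relative of Hnrnpd, differed by -0.22 ± 0.09 (SE) with overlapping groups, and Hnrnpd itself, an RNA decay factor, by -0.11 ± 0.08. Hnrnpll, known from alternative splicing in lymphocytes, differed by -0.06 ± 0.06 without overlap, while Hnrnpl, which binds CA repeats, differed by 0.01 ± 0.06. Hnrnpc, which binds U tracts, differed by 0.02 ± 0.15, Hnrnpa2b1 by -0.07 ± 0.11, Hnrnpm by -0.05 ± 0.06 and Hnrnpul1 by 0.01 ± 0.06. Hnrnpdl had a difference of -0.08 against wildtype replicate 1 alone, and Hnrnpd one of -0.02. Hnrnpa2b1 was then at 0.09 and Hnrnpul1 at -0.01, both with a changed sign. Hnrnpm was at -0.12, Hnrnpc at 0.12 and Hnrnpl at 0.03.

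Hnrnph2 and U2af2 were the genes among the 47 in which an array lay at least 0.5 log2 units away from both other arrays of its group, in both cases transgenic replicate 3, below. Over all tested probes this array lay that far below in 65 (0.433%) and that far above in 71 (0.473%). The SD among transgenic animals was 0.50 for Hnrnph2 and 0.45 for U2af2. A transgenic SD at least that large was found for 0.807% and 1.09% of all probes. Across the 47 genes the median SD was 0.096 among transgenic animals and 0.063 among wildtype animals, while over all probes it was 0.090 and 0.088. The SD was larger among transgenic animals in 28 of 47 genes (59.6%), against 49.7% of all probes, which is given as a description with no test.

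By animal, the 47 genes together varied little. Relative to the mean of the 6 arrays their mean level was -0.03, -0.01 and 0.02 in transgenic replicates 1 to 3, against 0.02, 0.00 and 0.01 in wildtype replicates 1 to 3. The families differed more. The SR proteins were at -0.03, 0.01 and 0.09 in transgenic animals and at 0.01, -0.02 and -0.07 in wildtype animals. The SF3 subunits were at -0.08, 0.03 and 0.10 in transgenic animals and at 0.04, -0.05 and -0.04 in wildtype animals. In both families transgenic replicate 3 was the highest array, as it was for the 4 snRNP proteins, at 0.11. This was not particular to these families. Over all tested probes that array was the highest transgenic array in 42.4%, against 44.7% of the 47 genes. The Prp proteins were at -0.00, -0.05 and -0.02 in transgenic animals and at 0.04, 0.01 and 0.02 in wildtype animals, and the hnRNPs at -0.05, -0.02 and -0.04 in transgenic animals and at -0.01, 0.04 and 0.07 in wildtype animals. In both of these families the mean of each transgenic array lay below that of each wildtype array. Among the hnRNPs this depended on Hnrnph2, at 8.63 in transgenic replicate 3, and without that gene the means of the groups overlapped. Single genes went either way, with a difference above 0 in 5 of 11 Prp proteins and 6 of 13 hnRNPs.

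Markers of other cells moved between the same arrays. The 10 genes of meninges and fibroblasts were at 0.34, 0.49 and 0.26 in transgenic animals, against 0.24, -0.64 and -0.69 in wildtype replicates 1 to 3, and all 10 had a difference above 0. The 7 choroid plexus genes were at 0.56, -0.19 and 0.66 in transgenic animals and at 0.53, -0.56 and -1.01 in wildtype animals. The 8 endothelial genes were at 0.19, 0.10 and 0.07 in transgenic animals and at -0.02, -0.23 and -0.11 in wildtype animals. The 12 neuronal genes stayed between -0.05 and 0.03 in transgenic animals and between 0.00 and 0.01 in wildtype animals. The mean log2 level of the meningeal list ranged from 9.06 to 9.29 in transgenic animals and from 8.11 to 9.04 in wildtype animals, and 9 of its 10 genes lay at or above the median level of the tested probes. The part of these cells in the differences of the splicing genes was not tested, and in whole tissue fewer cells of a type and less RNA per cell cannot be told apart.

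**Figure D3:**
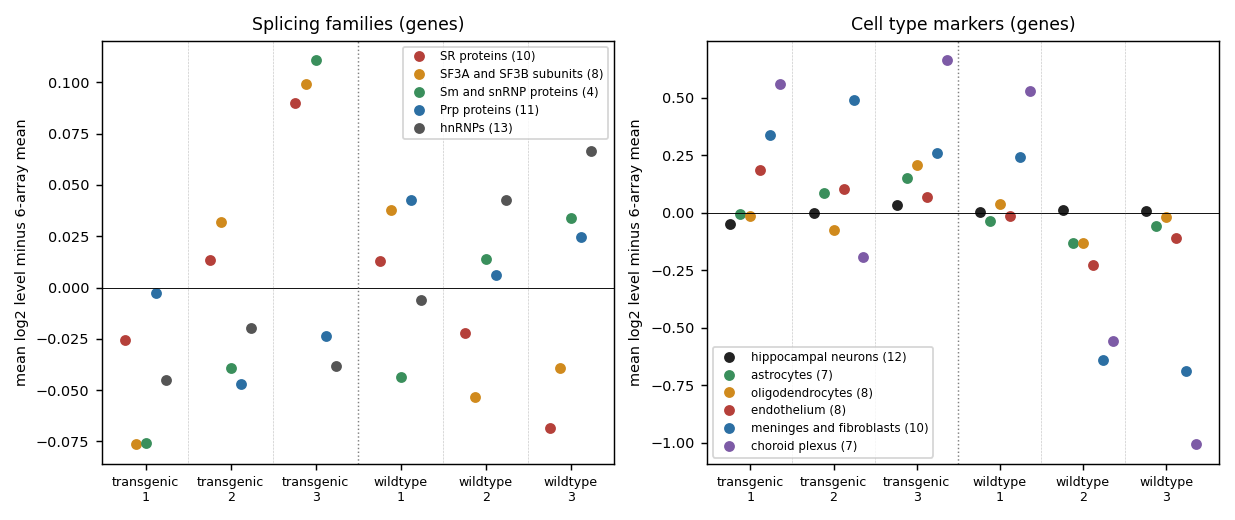
Mean log2 level of each gene family (left) and cell type marker list (right) in each of the 6 arrays, relative to the mean of the 6 arrays, with the number of genes in brackets. The SR, SF3, Sm, Prp and hnRNP families range from -0.08 to 0.11, whereas the meningeal and choroid plexus markers are lowest in wildtype replicates 2 and 3.

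Comparison of the transgenic animals with wildtype replicate 1, the wildtype array without Y-linked signal, gave each splicing gene a difference that rests on a single wildtype animal. The differences then ranged from -0.51 for Hnrnph2 to 0.24 for Snrpd1, a gene near the level of the Hox list. Their median was -0.02, and 19 of 47 were above 0. The genes with an unadjusted p under 0.05 in the full comparison had differences of 0.12 for Srsf9, 0.14 for Sf3a2, -0.19 for Prpf38b, -0.23 for Srsf11, -0.13 for Hnrnpu and -0.51 for Hnrnph2. With 1 wildtype animal the spread comes from the transgenic arrays alone, so these differences are given as values with no test.

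**Figure D4:**
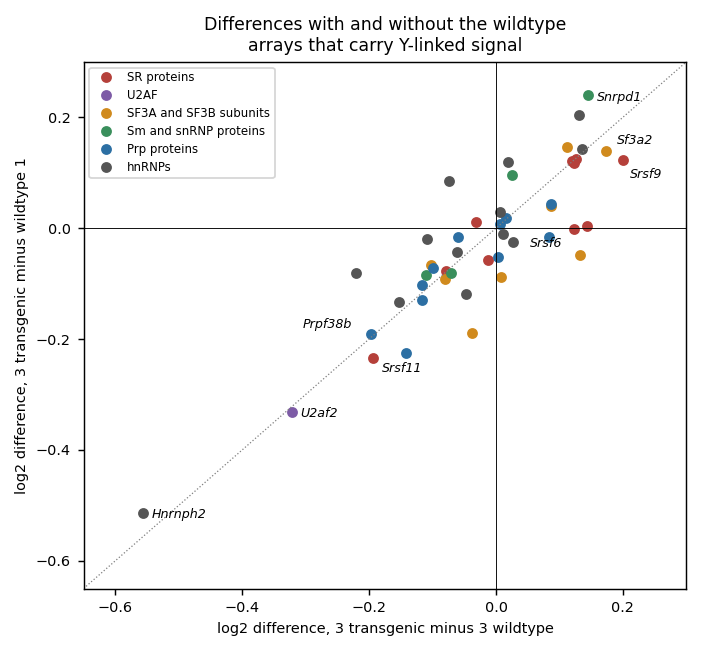
Log2 difference of each of the 47 genes in the full comparison (horizontal axis) and with wildtype replicate 1 as the only wildtype animal (vertical axis). Points on the dotted line have the same difference in both. Srsf6 is at -0.00 against wildtype replicate 1 alone and at 0.12 in the full comparison, Hnrnph2 is at -0.51 and -0.56, and both axes share the transgenic animals.

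The promoter windows of these genes were compared with those of other genes on the array, since promoter sequence is something the choice by symbol did not use. A window holds 250 bases before and 50 bases after the annotated start. RefSeq (GRCm38.p6) gave exactly 1 window for 33 of the 47 genes, several for 8 and none for 6, and 9647 genes with a tested probe had exactly 1 window. The ratio of observed to expected CpG dinucleotides had a median of 0.928 in the 33 windows, against 0.670 over the 9647, and 31 of the 33 lay above the all-gene median. The GC box GGGCGG, read on both strands, was in 25 of 33 windows (75.8%), against 53.3% of all windows. The ETS core CCGGAAG was in 9 (27.3%, against 13.4%) and the NRF1 site, GCGC and TGCGC with any base (N) between them, in 7 (21.2%, against 7.94%). The TATA box TATAAA was in 5 (15.2%, against 12.4%), the CCAAT box CCAAT in 16 (48.5%, against 39.0%), the YY1 core AAGATGG in 2 (6.06%, against 7.05%) and the CREB site TGACGTCA in 0 (against 2.43%). These motifs are matches of letters, may overlap one another in CpG-rich sequence, and are given without a test. The 9647 windows belong to genes of any expression level, whereas 44 of the 47 genes lay at or above the median level. Windows of genes at a like level were not compared.

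The windows below belong to the members whose p was lowest on either side among those with exactly 1 window, Srsf9 and Sf3a2 on the higher side and Prpf38b and Hnrnph2 on the lower side. They are written 5′ to 3′ on the strand of the gene, and capitals mark the GC box, the ETS core and the NRF1 site on either strand.
Srsf9 promoter, chr5:115326927-115327226, plus strand: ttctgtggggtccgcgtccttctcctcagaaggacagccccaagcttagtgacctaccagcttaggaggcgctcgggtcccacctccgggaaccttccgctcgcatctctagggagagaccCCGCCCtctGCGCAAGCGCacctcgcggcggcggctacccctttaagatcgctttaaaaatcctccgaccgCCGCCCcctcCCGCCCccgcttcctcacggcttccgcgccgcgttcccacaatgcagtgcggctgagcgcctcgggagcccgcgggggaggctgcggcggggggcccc
Sf3a2 promoter, chr10:80798485-80798784, plus strand: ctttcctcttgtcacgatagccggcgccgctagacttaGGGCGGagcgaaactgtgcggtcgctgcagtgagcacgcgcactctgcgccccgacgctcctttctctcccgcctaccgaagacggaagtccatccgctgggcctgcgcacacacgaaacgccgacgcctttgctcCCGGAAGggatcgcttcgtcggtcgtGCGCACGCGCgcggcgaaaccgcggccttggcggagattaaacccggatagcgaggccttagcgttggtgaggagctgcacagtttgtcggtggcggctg
Prpf38b promoter, chr3:108911680-108911979, minus strand: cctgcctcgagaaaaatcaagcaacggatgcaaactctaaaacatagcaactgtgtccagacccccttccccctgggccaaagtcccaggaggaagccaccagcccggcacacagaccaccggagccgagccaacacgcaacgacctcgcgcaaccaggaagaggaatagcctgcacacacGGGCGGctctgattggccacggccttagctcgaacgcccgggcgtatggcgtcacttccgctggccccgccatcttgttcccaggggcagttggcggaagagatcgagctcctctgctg
Hnrnph2 promoter, chrX:134600929-134601228, plus strand: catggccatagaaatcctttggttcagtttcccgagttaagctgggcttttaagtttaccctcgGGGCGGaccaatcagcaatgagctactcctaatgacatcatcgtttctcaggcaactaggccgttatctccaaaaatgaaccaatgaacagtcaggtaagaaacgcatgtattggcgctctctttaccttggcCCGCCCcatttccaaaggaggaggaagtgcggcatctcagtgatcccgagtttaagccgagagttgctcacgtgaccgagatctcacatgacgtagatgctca
The window of Srsf9 holds 3 GC boxes and 1 NRF1 site, and that of Sf3a2 holds 1 GC box, 1 ETS core and 1 NRF1 site. The window of Prpf38b holds 1 GC box, 1 YY1 core and 1 CCAAT box, and that of Hnrnph2 holds 2 GC boxes and 3 CCAAT boxes with the lowest GC content of the set at 49.0%. No match of the NRF1 site or of the ETS core was found in the windows of Prpf38b and Hnrnph2, which says only that those letters are not in these windows.

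Other genes of splicing and RNA binding, from 8 lists by function, were read from the same fit. Of 156 genes listed 130 were measured, and none passed the false discovery rate of 10%, with 3 higher (Ddx39b, Wdr77 and Pcbp3) and 5 lower (Rnpc3, Esrp2, Taf15, Rbm25 and Ralyl) at an unadjusted p under 0.05, and a median difference of 0.01. Over all tested probes 5.81% were higher and 4.8% lower at that level, or 10.6% in all, so the 8 of 130 lie below the background share. Their differences ranged from -0.24 to 0.25. By list, the median was 0.02 for 20 SR-related proteins and SR kinases, 0.01 for 36 other spliceosome proteins, -0.02 for 8 proteins of the minor spliceosome, 0.14 for 4 of the exon junction complex, -0.00 for 13 of snRNP assembly, -0.00 for 27 tissue-specific splicing regulators, -0.04 for 7 FET and paraspeckle proteins and 0.01 for 15 other hnRNP-like proteins.

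In those lists the genes with an unadjusted p under 0.05 covered several steps of splicing. Ddx39b, the helicase that helps U2 snRNP to bind and later exports mRNA, had 10.61, 10.64 and 10.82 in transgenic animals, against 10.54, 10.43 and 10.46 in wildtype animals (difference 0.21 ± 0.08 (SE), limma adjusted p = 0.433). Rnpc3, a protein of the minor spliceosome, had 8.64, 8.57 and 8.73 in transgenic animals and 8.81, 8.98 and 8.85 in wildtype animals (difference -0.23 ± 0.07, limma adjusted p = 0.431). Taf15, an RNA-binding protein of the FET family, had 8.59, 8.66 and 8.55 in transgenic animals and 8.73, 8.91 and 8.87 in wildtype animals (difference -0.24 ± 0.07, limma adjusted p = 0.431). The groups did not overlap in Ddx39b, Rnpc3 or Taf15. Against wildtype replicate 1 alone the difference was -0.13 for Taf15, over 1.5 times smaller than in the full comparison.

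Wdr77, a partner of the methyltransferase that prepares Sm proteins, differed by 0.17 ± 0.06 (SE), and Pcbp3, a protein that binds C-rich RNA, by 0.19 ± 0.07. Rbm25, which binds exonic enhancers, differed by -0.18 ± 0.06, and the neuronal hnRNP-like gene Ralyl by -0.15 ± 0.06. Esrp2, a splicing regulator of epithelia, differed by -0.15 ± 0.06. The limma adjusted p was 0.439 for Wdr77, 0.433 for Pcbp3, 0.432 for Rbm25, 0.443 for Ralyl and 0.462 for Esrp2. Against wildtype replicate 1 alone the difference was 0.11 for Pcbp3, -0.11 for Rbm25 and -0.08 for Esrp2.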

How the data were processed

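Hippocampal RNA of 3 transgenic and 3 wildtype mice was measured on 1 Affymetrix array per animal. The authors deposited log2 values, 1 per probe. RMA and the build mm8 are named per the submitters' processing notes, and the RMA version is not stated there. Of 23332 probes, the platform annotation in GEO, dated and possibly old, gave 1 symbol for 14996, several for 1019 and none for 7317. The 14996 were tested with limma 3.58.1 in R 4.3.3 (lmFit, eBayes, no covariate, two-sided, Benjamini-Hochberg adjustment over all 14996), transgenic minus wildtype. SE and 95% intervals are limma's moderated values. The method was tested on simulated data with independent noise and planted changes of 1.5-fold and 2-fold, so smaller differences were not covered. RefSeq gene identifiers matched all 47 members, with 0 names changed.

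The members and the gene lists were chosen with earlier results of these data known. Named genes were, in each of the 6 families, up to 2 members with the smallest p in each direction, a few members fixed by name (Srsf1, Srsf5, Srsf6, U2af2, Sf3b1, Prpf8, Hnrnph1 and Hnrnpu, while Snrpn and Hnrnpa1 have no single-symbol probe here), Lmna, Eif2s3y and Kdm5d. From the lists by function, named genes were up to 2 genes per direction, of which those with an unadjusted p under 0.05 are given. Markers of microglia, astrocytes and oligodendrocytes had median log2 differences of 0.01, 0.18 and 0.07.

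Replicate numbers appear in both groups. Deviations of same-numbered arrays from their group means correlated at 0.23, 0.15 and 0.02 for numbers 1, 2 and 3 across probes. Differently numbered arrays correlated at -0.25 to 0.09, and for each transgenic array the same-numbered wildtype array had the highest value. The labels give a number only, so the main fit did not pair the animals. A fit with the number as a block is given below, and whether the number stands for a batch was not tested. Values per exon and scanner intensities were not analysed here.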

Additional observations from a re-analysis of the deposited data

How the results depend on the processing

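Under all alternatives run, 0 of the 47 genes passed a false discovery rate of 10%, with or without 2-fold, and 0 passed 5% or 10% with 1.5-fold. The fits were the replicate number as a block, further quantile normalization, median centring, cyclic loess, no dimmest 33.3% of the probes, trend and robust estimation, array weights, the whole table of 23332 probes, averaged probes per gene, the Y-linked signal as a covariate, no wildtype arrays 2 and 3, and each array left out in turn. With the replicate block, which rests on a shared number only, 6 of 47 genes had an unadjusted p under 0.05, against 1807 of 14996 probes, and 0 of all probes passed 10%, against 7 without the block. Without wildtype replicate 1, 103 of all probes passed 10%, and the smallest adjusted p of a member in limma was 0.302. The wildtype arrays left in that fit both have high Y-linked signal, and all transgenic arrays have low signal. Genotype and Y-linked signal cannot be told apart there.

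The count of genes higher at an unadjusted p under 0.05, 2 in the main comparison, was 1 with cyclic loess and with array weights, and 3 with median centring, without the dimmest probes and with trend and robust estimation. Leaving out single arrays gave 0 to 3, while the share of all probes higher at that level ran from 3.49% to 7.01%. The count lower, 4 in the main comparison, was 1 with the whole table and 3 with median centring and array weights. It was 5 with quantile normalization, cyclic loess and without the dimmest probes. Without single arrays it was 0 to 5, while the share of all probes lower at that level ran from 3.09% to 5.6%. Both counts were 0 with the Y-linked covariate, a fit that keeps all 6 arrays. Without wildtype arrays 2 and 3 the spread comes from the transgenic arrays alone, so no count is given for that fit. The share of all probes at an unadjusted p under 0.05 was 2.96% with the covariate and 9.18% with the whole table. It was 10.4% to 13.7% in the other fits that kept all arrays and had no block. The median difference, 0.0039, was -0.0183 with cyclic loess, -0.0152 with array weights, -0.0214 with the covariate and -0.019 without wildtype arrays 2 and 3. It was -0.0421 to 0.0195 without single arrays.

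The gene results cover 35 named genes, which are only some of the splicing genes, with Lmna and genes from the lists by function. Of their 594 results under an alternative, 23 changed sign, in 7 genes whose differences over all arrays were between -0.07 and 0.12. None crossed the threshold. Over all the splicing genes, 9 changed sign without wildtype arrays 2 and 3. Outside the named genes these were Sf3b5 (0.13 to -0.05), Hnrnpa2b1 (-0.07 to 0.09), Prpf3 (0.00 to -0.05) and Hnrnpul1 (0.01 to -0.01). With cyclic loess Snrpd3 was at -0.0043, Sf3b1 at -0.0181 and Hnrnph1 at -0.0033. With quantile normalization Sf3b1 was at -0.0123 and Hnrnph1 at -0.00065, and with array weights Sf3b1 was at -0.0023. With the covariate Prpf18 was at -0.012, Srsf1 at 0.0106, Sf3b1 at -0.0845 and Hnrnph1 at -0.0239. Without wildtype arrays 2 and 3 Prpf18 was at -0.0156, Srsf1 at 0.0108, Srsf6 at -0.00095, Sf3b1 at -0.0882 and Hnrnph1 at -0.0255. Without transgenic replicate 1 Snrpb2 was at 0.034 and Srsf1 at 0.0615. Without transgenic replicate 3 Sf3b1 was at -0.0421 and Hnrnph1 at -0.0154. Without wildtype replicate 1 Snrpd3 was at -0.0094. Without wildtype replicate 2 Sf3b1 was at -0.0134, and without wildtype replicate 3 Sf3b1 was at -0.0184 and Hnrnph1 at -0.0083. Leaving out single arrays, the values at the other end of the range were 0.0603 for Snrpd3 (wildtype replicate 2), -0.184 for Snrpb2 and -0.127 for Srsf1 (both transgenic replicate 3), 0.0564 for Sf3b1 (wildtype replicate 1) and 0.0600 for Hnrnph1 (transgenic replicate 1). The cause of these changes was not tested.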

Other observations

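A further 10 probes carried a symbol of these families together with a second symbol, and so stood outside the 47. In a fit over all 23332 probes none of them had an unadjusted p under 0.05 in limma, and the smallest adjusted p was 0.592. The probe of Snrpn and Snurf, an imprinted pair of brain whose protein product SmN replaces another Sm protein in neurons, had 12.41, 12.60 and 12.55 in transgenic replicates 1 to 3, against 12.38, 12.63 and 12.58 in wildtype replicates 1 to 3. Its values covered the same range in both groups, with a log2 difference of -0.01 ± 0.09 (SE). Wildtype replicate 1 was its lowest array. Differences against wildtype replicate 1 alone were not fitted for these 10 probes.

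The probe of Sf3a1 and Tbc1d10a had 8.74, 8.83 and 8.80 in transgenic animals, against 8.68, 8.67 and 8.69 in wildtype animals. All transgenic animals were higher, with a difference of 0.11 ± 0.06 (SE). Sf3a1 encodes the third subunit of SF3A, beside Sf3a2 at 0.17 and Sf3a3 at -0.10. The probe of Hnrnpul2 and Bscl2 differed by 0.07 ± 0.07, that of U2af1l4 and Igflr1 by 0.17 ± 0.11 and that of Snrpa and Gm5145 by -0.13 ± 0.10. The others pair a member name with a gene that is not a relative by name (Tex19.2 with Hnrnpf, Fndc11 with Hnrnpa3, Tmem45b with Snrpb2, Acss3 with Prpf38a and Ankrd34a with Sf3b4), and which transcript such a probe reports is not known here. Their differences ranged from -0.19 to 0.10. The probe of Ankrd34a and Sf3b4 had a transgenic mean of 8.60, against 6.83 for the single-symbol Sf3b4 probe. It differed by 0.00 ± 0.08, and the single-symbol probe by -0.04 ± 0.13. The number of the single-symbol probe, 6836646, lies between those of Prpf40b on chromosome 15 (6833157) and Srsf3 on chromosome 17 (6849589). Sf3b4 itself is on chromosome 3, and which transcript its single-symbol probe reports was not tested.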
